A study of Homo sapiens with 12 samples.

Results

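The genes described here are 10 members of the Notch pathway: the receptors NOTCH1, NOTCH2 and NOTCH3, the ligands JAG1, JAG2 and DLL1, the transcriptional repressors HES1, HES4 and HEY1, and the feedback inhibitor NRARP. They were picked by name for their place in the pathway, and each was found as 1 row among the 23621 gene rows listed for the cells below. Of these members, 9 were active, meaning that their FPKM (a read level scaled to sequencing depth and transcript length) was above 1 in at least 1 library, as were 14251 genes in all. DLL1 was not active. The cells were KURAMOCHI (Ku) and COV362 (Cov), 2 established human ovarian cancer lines, both untransduced controls by their labels. Ku cells grew in RPMI and Cov cells in DMEM, each with fetal bovine serum, so that line and medium cannot be told apart. Cells of each line received DMSO, the vehicle, or THZ1 at 50 nM or 250 nM for 6 hr, with 2 libraries per group described as biological duplicates. THZ1 is a covalent inhibitor of CDK7, CDK12 and CDK13, kinases that act on RNA polymerase II during transcription.

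Notch receptors are single-pass membrane proteins that bind Jagged and Delta-like ligands on a neighbouring cell. Ligand binding exposes the receptor to cleavage by ADAM proteases and then by γ-secretase, and the freed intracellular domain enters the nucleus, where it joins the DNA-binding protein RBPJ and a Mastermind-like (MAML) coactivator to switch on targets such as HES1, HES4, HEY1 and NRARP. The pathway is widely studied in ovarian cancer, where NOTCH3 and JAG1 have drawn particular attention. These data measure mRNA, and the cleaved receptors were not measured.

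HES1, HES4 and NRARP are known as Notch targets, and the sequence just before their starts is shown because RBPJ recognises a short motif, TGGGAA, often preceded by G in strong sites. The windows come from RefSeq on GRCh38.p14, cover the 250 bases before each start and read 5′ to 3′ on the strand of the gene, with TGGGAA in capitals. HES1 is at chr3:194135898-194136147 (plus strand), HES4 at chr1:1000098-1000347 (minus strand) and NRARP at chr9:137302272-137302521 (minus strand).
HES1: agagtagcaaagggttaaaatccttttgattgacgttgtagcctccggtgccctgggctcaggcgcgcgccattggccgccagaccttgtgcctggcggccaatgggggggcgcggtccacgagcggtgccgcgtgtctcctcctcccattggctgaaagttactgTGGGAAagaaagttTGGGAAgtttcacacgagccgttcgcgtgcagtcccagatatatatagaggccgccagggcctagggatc
HES4: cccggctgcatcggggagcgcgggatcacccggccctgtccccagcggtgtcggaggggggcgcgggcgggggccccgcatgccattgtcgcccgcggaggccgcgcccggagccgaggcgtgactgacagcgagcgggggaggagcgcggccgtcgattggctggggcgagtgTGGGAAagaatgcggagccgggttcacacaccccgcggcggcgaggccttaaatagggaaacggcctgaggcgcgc
NRARP: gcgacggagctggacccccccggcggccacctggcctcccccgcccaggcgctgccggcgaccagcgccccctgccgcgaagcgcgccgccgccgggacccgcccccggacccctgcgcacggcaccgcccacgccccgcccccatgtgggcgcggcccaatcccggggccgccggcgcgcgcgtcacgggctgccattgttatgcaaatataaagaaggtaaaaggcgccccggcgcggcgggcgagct
HES1 held TGGGAA at 2 places, ending 79 and 65 bases before the start, and HES4 held it once, ending 71 bases before the start. The longer GTGGGAA, which contains TGGGAA, was found once in each. The longest run the windows of HES1 and HES4 had in common was tgTGGGAAagaa, 12 bases long, which 6 of the 35116 promoter windows in the table held. The NRARP window held no TGGGAA on either strand. Of the members, 8 were in the promoter table, and HES1 and HES4 were the ones with TGGGAA, which 20.8% of all windows hold, and with GTGGGAA, which 5.43% hold, counting both strands. The HES-binding motif CACNAG was in the windows of HES1 (3 matches) and NOTCH3 (1 match), and in 32.0% of all windows. These matches describe letters in a window and are not measured binding sites.

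In the vehicle-treated cells, the receptor and ligand pair NOTCH2 and JAG1 and the repressors HES4 and HES1 had the highest levels of the members in both lines, and DLL1 the lowest. In Ku cells the mean FPKM over the DMSO libraries ran from HES4 (68.0) through NOTCH2 (52.1), JAG1 (51.6), HES1 (30.2), NOTCH3 (19.7), JAG2 (13.2), NOTCH1 (6.90), NRARP (4.07) and HEY1 (2.31) to DLL1 (0.154). Of the neighbours in this order, NOTCH2 and JAG1 alone had overlapping libraries. In Cov cells the order was NOTCH2 (54.3), HES4 (50.8), HES1 (47.3), JAG1 (47.0), NRARP (10.5), NOTCH1 (9.12), JAG2 (2.28), NOTCH3 (1.54), HEY1 (1.38) and DLL1 (0.134), and the neighbours NOTCH2 and HES4, HES1 and JAG1, and NOTCH3 and HEY1 overlapped. The tables of the lines were normalized separately, so levels and changes are given side by side and were not tested between lines. NOTCH3 stood at 19.0 to 20.4 FPKM in the Ku DMSO libraries and at 1.34 to 1.73 in those of Cov, and JAG2 at 12.9 to 13.5 and 2.04 to 2.52.

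**Figure D1:**
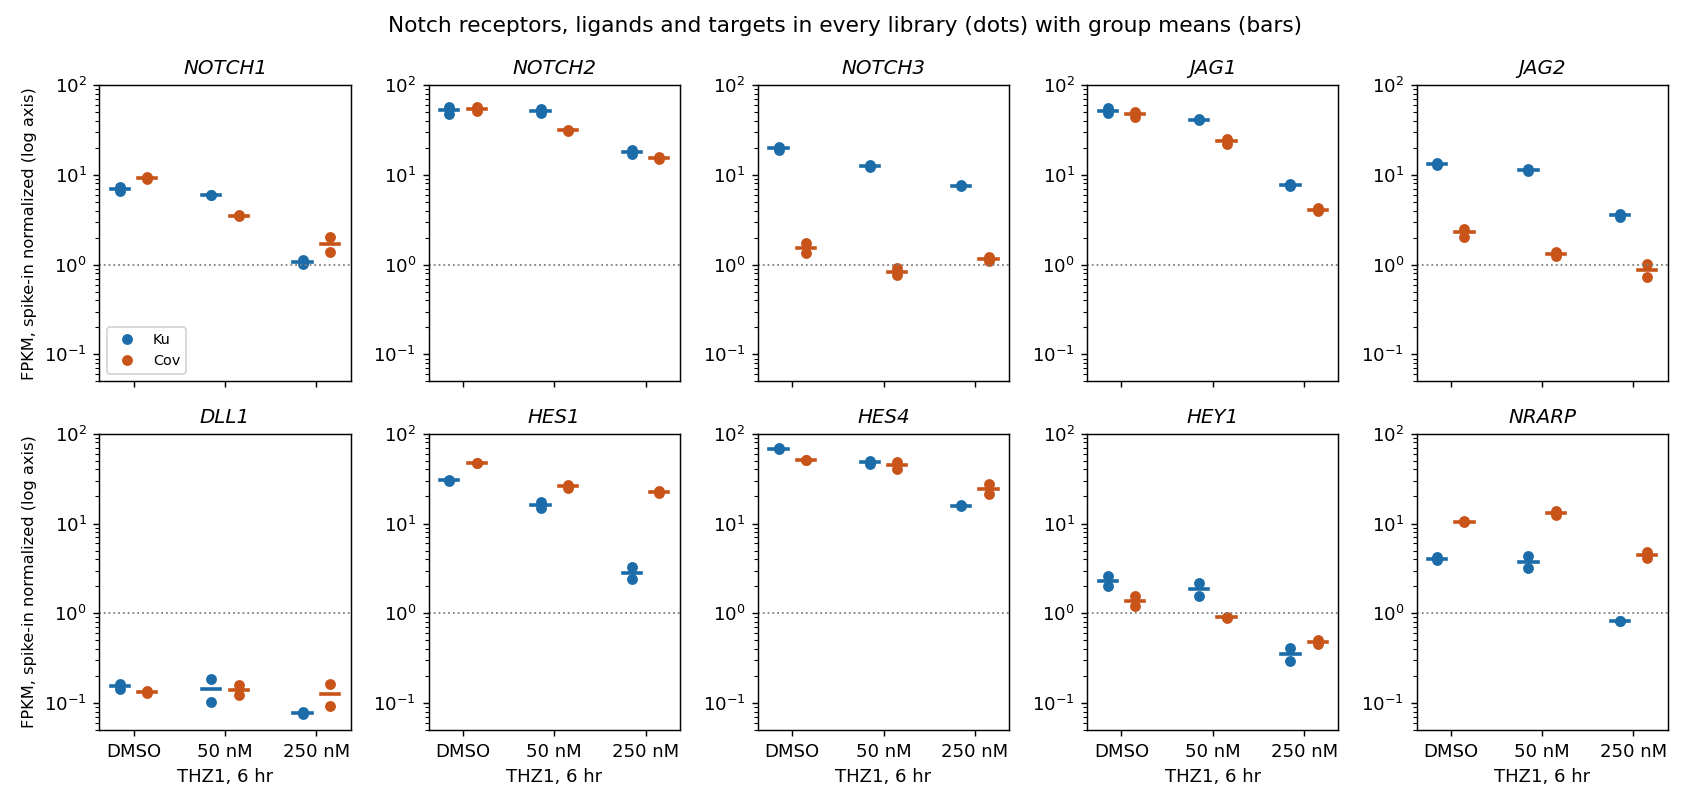
FPKM of each member in every library (dots, log axis) with group means (bars), for Ku cells (blue) and Cov cells (orange) in DMSO and after 50 nM or 250 nM THZ1 for 6 hr; the dotted line marks an FPKM of 1. At 250 nM JAG1 lies at 7.53 and 7.98 in Ku cells and at 3.95 and 4.25 in Cov cells, HES1 lies at 2.38 and 3.25 in Ku cells but at 23.1 and 21.8 in Cov cells, and DLL1 stays at or below 0.184 FPKM in every library.

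Depth is unknown because the tables hold FPKM and not reads. In place of zeros, 4896 to 5371 rows of a library shared a single low value of 0.0783 to 0.119 FPKM, called the floor here. Over active genes, Pearson's r between replicates was 0.968 to 0.983. Of 8 markers of ovarian carcinoma epithelium, PAX8 was present in both lines (11.5 to 140 FPKM in Ku, 16.4 to 127.9 in Cov), WT1 was below 1 in every Cov library and MUC16 in every Ku library, and the other 5 were above 1 in every library. Of 5 blood and endothelial markers, CD3E and HBB were at the floor in all libraries, and the 5 summed to 2.49 to 3.64 FPKM in Ku cells, mostly VWF, and to 0.764 to 1.30 in Cov cells.

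At 250 nM, the mRNA of every active Notch member had a lower mean than in DMSO in both lines, on the spike-in scale on which the authors deposited the values, and NOTCH3 in Cov cells was the one that did not pass the test. A member was called lower where limma, fitted to log2(FPKM + 1) of the 6 libraries of a line, gave a log2 fold change below -0.5 at a Benjamini-Hochberg adjusted p under 0.001. By this rule, 9 of 9 active members were lower in Ku cells at 250 nM, where 68.6% of all active genes were, and 8 of 9 in Cov cells, where 84.0% were. None was higher in either line, where 0.0491% and 0.105% of active genes were. Both 250 nM libraries lay below both DMSO libraries for 9 of 9 members in each line, as for 95.9% of active genes in Ku cells and 95.6% in Cov cells. The members had a median log2 fold change of -1.65 in Ku cells, against -1.11 over all active genes, and -1.04 in Cov cells, against -1.31. All 9 members lay below the all-gene median in Ku cells and 3 (NOTCH1, NOTCH2 and JAG1) did in Cov cells. Against backgrounds chosen after the data were seen, the all-gene medians were -1.27 and -1.42 over genes with a mean above 1 FPKM in the line, and -1.19 and -1.44 above 10 FPKM. The shares called lower were 77.1% and 91.5% above 1 FPKM, and 83.3% and 95.8% above 10 FPKM. The 9 members were not held to these limits, so the shares are not a like background for their counts. In Cov cells NOTCH1, NOTCH3, JAG2 and HEY1 were under 10 FPKM in every library. NOTCH2, JAG1, HES1 and HES4, with the highest DMSO levels there, were all called. RNA amounts were matched on cell number before the spike-ins went in, so the values are per cell counted, and in bulk RNA an even change in every cell cannot be told apart from a larger change in some cells. An exact permutation test of 2 libraries against 2 cannot give a two-sided p below 0.33, so each call rests on the spread limma pools over genes. The libraries were also brought to a common scale by median-of-ratios. The all-gene median at 250 nM was then -9e-04 in Ku and 0.01 in Cov cells. It lies near no change by construction, because the scaling centres each library on its median ratio over active genes. Changes on that scale are relative to the typical active gene, and a positive one is not by itself a rise per cell counted. NOTCH1, JAG1 and HES1 were still called lower in Ku cells, JAG1 alone was in Cov cells, and HES1 was called higher in Cov cells. On that scale 19.0% of active genes were called lower and 11.1% higher in Ku cells, and 18.9% and 8.57% in Cov cells.

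**Figure D2:**
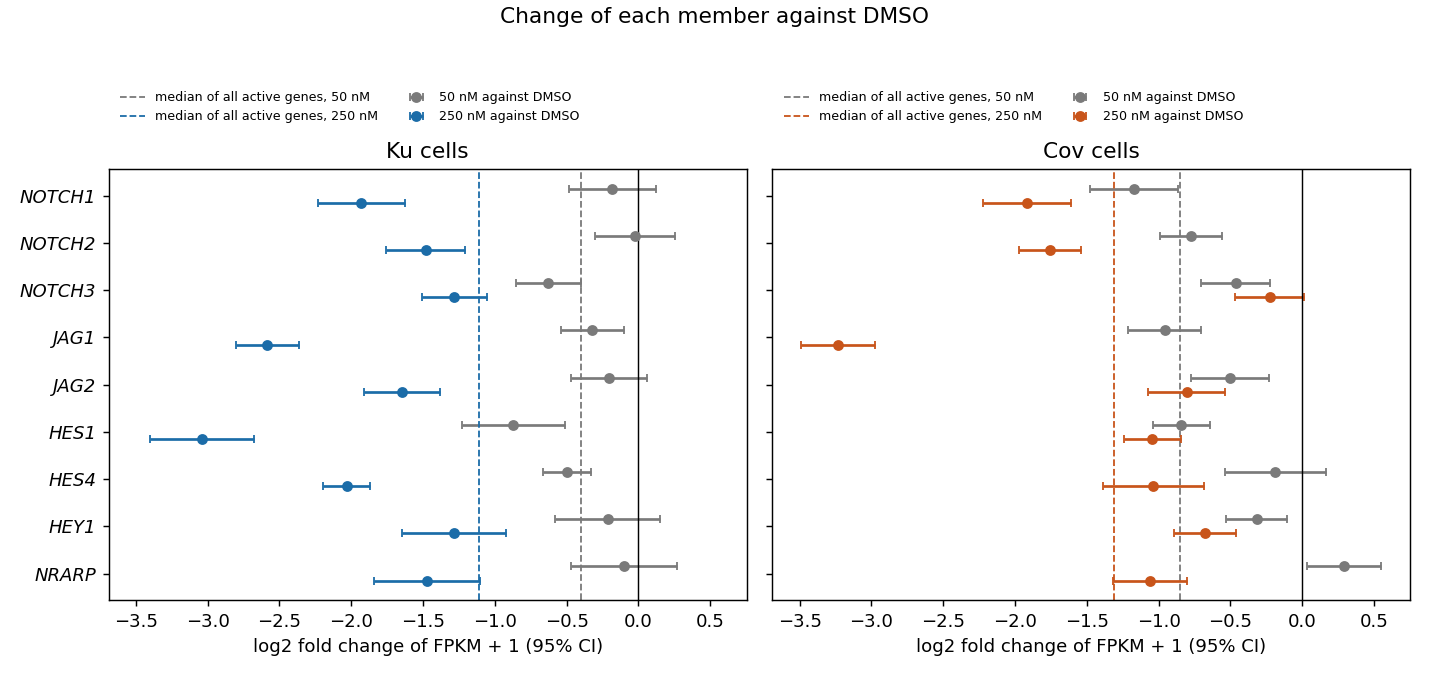
Log2 fold change of FPKM + 1 against DMSO for the 9 active members, with 95% confidence intervals from limma, at 50 nM (grey) and 250 nM (coloured); dashed lines mark the median of all active genes. On this spike-in scale the coloured points lie left of the dashed line for 9 members in Ku cells and for NOTCH1, NOTCH2 and JAG1 in Cov cells; after median-of-ratios scaling NOTCH3 turns above 0 at 250 nM in Ku cells, and NOTCH3, JAG2, HES1, HES4, HEY1 and NRARP do in Cov cells.

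At 50 nM members were called in Cov cells but not in Ku cells, a difference that was not tested. No member was called lower in Ku cells by limma, where 11.3% of active genes were. Even so, 4 had a limma p under 0.05, both unadjusted and adjusted (NOTCH3, JAG1, HES1 and HES4), and missed the stricter rule. In Cov cells NOTCH1, NOTCH2, JAG1 and HES1 were called lower, 4 of 9 beside 70.5% of active genes. These 4 calls were all lost without the second Cov DMSO library, with adjusted p from limma then between 0.00102 and 0.00167 and 30.3% of active genes called, and that of NOTCH1 was also lost without the first (0.00105, where 48.4% were called). None was higher at 50 nM, where 0.0842% and 0.0772% of active genes were. Both 50 nM libraries lay below both DMSO libraries for 6 of 9 members in Ku cells (75.8% of active genes) and 8 of 9 in Cov cells (95.7%). The median member change was -0.21 in Ku cells (all active genes -0.40) and -0.50 in Cov cells (all active genes -0.85). From 50 nM to 250 nM, 7 members were called lower in Ku cells (36.0% of active genes) and 3, NOTCH2, JAG1 and NRARP, in Cov cells (24.4%), and none was higher in either (0.0421% and 0.0842%). Libraries of the higher dose lay below those of the lower for 9 of 9 members in Ku cells (87.7% of active genes) and 8 of 9 in Cov cells (75.6%). After median-of-ratios scaling no member was called at 50 nM in either line (the lower share of active genes was 2.72% for Ku and 0.772% for Cov, and the higher share 0.519% and 0.140%), and NOTCH1, NOTCH2, JAG1 and HES1 in Cov cells were then at -0.29, 0.23, 0.041 and 0.16. Between the doses, NOTCH1, NOTCH2, JAG1 and HES1 were still called lower in Ku cells (11.1% of active genes) and JAG1 in Cov cells (7.92%). No member rose by that rule between the doses (1.39% and 0.498% of active genes did). On the spike-in scale, the 7 became 2 without the first Ku 50 nM library, where the share of active genes called fell to 5.89%, and 3 without either of the Ku 250 nM libraries (5.55% and 7.17%). The doses were compared with the same DMSO libraries, so their changes against DMSO are not independent.

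Of the receptors, NOTCH1 fell in both lines at 250 nM on the spike-in scale. NOTCH1 was at 7.22 and 6.58 FPKM in the Ku DMSO libraries, 5.98 and 5.94 at 50 nM, and 1.01 and 1.14 at 250 nM. The Cov libraries gave 8.92 and 9.32, then 3.43 and 3.55, then 1.39 and 2.01. The groups did not overlap in either line, and the Cov level at 50 nM was already well below DMSO. The log2 fold change at 250 nM was -1.93 in Ku cells (standard error 0.122, limma adjusted p = 2.53e-05) and -1.92 in Cov cells (0.129, limma adjusted p = 5.44e-06). At 50 nM the changes were -0.18 (limma adjusted p = 0.249, not called) and -1.17 (limma adjusted p = 0.000122). After median-of-ratios scaling NOTCH1 was still lower in Ku cells at 250 nM, at -0.90, and in Cov cells it was at -0.65 and not called. The gene covers 51.6 kb of the minus strand of chromosome 9, from 139388885 to 139440500 on GRCh37, the assembly of hg19, in 34 exons.

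NOTCH2, the most abundant receptor in both lines, also fell at 250 nM on the spike-in scale. Its FPKM in Ku cells was 56.6 and 47.5 in DMSO, 54.1 and 48.2 at 50 nM, and 17.0 and 18.8 at 250 nM. Cov cells had 51.0 and 57.5 in DMSO, then 30.5 and 31.8, then 15.01 and 15.7. The Ku libraries at 50 nM lay inside the DMSO range, while those of Cov lay below it. NOTCH2 changed at 250 nM by -1.48 on the log2 scale in Ku cells (standard error 0.113, limma adjusted p = 4.66e-05) and -1.75 in Cov cells (0.0912, limma adjusted p = 1.85e-06), and after median-of-ratios scaling it was -0.07 and -0.20, called in neither. From 50 nM to 250 nM it fell by 0.98 in Cov cells (limma adjusted p = 0.000163), a call lost without the first 250 nM library (0.00104). NOTCH2 spans 189.0 kb of chromosome 1 (120454176 to 120643366, minus strand) and has a near-identical partial copy, listed separately as NOTCH2NL, with which reads may have been split, so its values carry that uncertainty.

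NOTCH3 ranked between NOTCH2 and NOTCH1 in Ku cells and below both in Cov cells. In Ku cells it was at 20.4 and 19.0 FPKM in DMSO, 12.8 and 12.1 at 50 nM, and 7.43 and 7.60 at 250 nM, each dose below the one before. In Cov cells it was at 1.34 and 1.73 in DMSO, 0.909 and 0.763 at 50 nM, and 1.10 and 1.23 at 250 nM, so that the higher dose lay above the lower one and just under DMSO. It was called lower in Ku cells at 250 nM (log2 fold change -1.28, standard error 0.0929, limma adjusted p = 3.98e-05) and not in Cov cells (-0.23, 0.101, limma adjusted p = 0.0654), with 95% confidence intervals of -1.51 to -1.05 and -0.47 to 0.01. Near 1 FPKM the added pseudocount of 1 shrinks a change, and the mean Cov level at 250 nM was 75.7% of DMSO against 38.1% in Ku cells. After median-of-ratios scaling the change at 250 nM was 0.06 in Ku and 0.68 in Cov cells. NOTCH3 lies on chromosome 19 from 15269849 to 15311806, minus strand, in 33 exons.

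Among the ligands, JAG1, whose product is a principal Notch ligand of epithelial cells, fell far in both lines. In Ku cells JAG1 was at 55.1 and 48.2 FPKM in DMSO, 41.8 and 40.4 at 50 nM, and 7.53 and 7.98 at 250 nM. Cov cells had 43.8 and 50.1, then 22.3 and 25.1, then 3.95 and 4.25. The 3 groups were separate in each line, in the order of dose. At 250 nM, 15.02% of the DMSO level was left in Ku cells and 8.73% in Cov cells, falls of 6.66-fold and 11.5-fold. On the log2 scale JAG1 changed by -2.59 in Ku cells (standard error 0.0896, limma adjusted p = 7.03e-06) and -3.23 in Cov cells (0.107, limma adjusted p = 8.16e-07), and 7.28% and 1.88% of active genes had a lower one. JAG1 was the one member called lower at 250 nM in both lines after median-of-ratios scaling as well, at -1.21 and -1.76, and the step from 50 nM to 250 nM was called in both lines on both scales, at -2.26 in Ku and -2.27 in Cov cells on the spike-in scale. The gene lies on chromosome 20 from 10618332 to 10654647, minus strand, in 26 exons, and an antisense long non-coding RNA reaches into its exons. The kit marks strand, but the strand setting of the counting is not given in the sources used here.

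JAG2, the other Jagged ligand, fell in both lines at 250 nM on the spike-in scale. In Ku cells it was at 12.9 and 13.5 FPKM in DMSO, 11.02 and 11.6 at 50 nM, and 3.38 and 3.69 at 250 nM, and in Cov cells at 2.04 and 2.52, 1.38 and 1.25, and 0.735 and 1.02. Both treated groups lay below DMSO in each line. The log2 fold change at 250 nM was -1.65 in Ku cells (standard error 0.108, limma adjusted p = 2.80e-05) and -0.81 in Cov cells (0.114, limma adjusted p = 0.000279). The Cov call was lost without the second DMSO library (limma adjusted p = 0.00208) or the first 250 nM library (0.00173), and after median-of-ratios scaling the change was -0.39 in Ku and 0.13 in Cov cells, called in neither. A long non-coding RNA gene on the same strand reaches into exons of JAG2, on chromosome 14 from 105607319 to 105635161, so its values carry that uncertainty. DLL1, a Delta-like ligand, was at 0.0768 to 0.184 FPKM in Ku cells and 0.0925 to 0.162 in Cov cells, 0.98 to 1.77 times the floor, and was not tested. The gene FAM120B, on the opposite strand, reaches into its exons.

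HES1, a basic helix-loop-helix repressor and the classic Notch target, fell in both lines at 250 nM on the spike-in scale, and in Cov cells it turned higher after median-of-ratios scaling. In Ku cells HES1 was at 30.5 and 29.9 FPKM in DMSO, 17.4 and 14.8 at 50 nM, and 2.38 and 3.25 at 250 nM. In Cov cells it was at 47.4 and 47.2, then 25.03 and 26.9, then 23.1 and 21.8. At 50 nM 53.4% was left in Ku and 54.9% in Cov cells, and at 250 nM 9.34% was left in Ku cells and 47.4% in Cov cells. The log2 fold change at 250 nM was -3.04 in Ku cells (standard error 0.146, limma adjusted p = 1.23e-05, 95% confidence interval -3.40 to -2.68) and -1.04 in Cov cells (0.0830, limma adjusted p = 1.19e-05, -1.24 to -0.85). The step from 50 nM to 250 nM was -2.17 in Ku cells (limma adjusted p = 9.77e-05, or 0.00104 and not called without the first 50 nM library) and -0.20 in Cov cells (limma adjusted p = 0.0713, not called). Of all active genes, 3.34% changed further down than HES1 in Ku cells at 250 nM, and 64.8% did in Cov cells. After median-of-ratios scaling HES1 was still lower in Ku cells, at -1.78, and was called higher in Cov cells, at 0.52 (limma adjusted p = 0.000905). That scale sets the typical active gene to about no change. In Cov cells HES1 thus fell per cell counted, but by less than the typical active gene. The difference between the lines was not tested. HES1 is short, 2.58 kb with 4 exons on the plus strand of chromosome 3, from 193853937 to 193856521.

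HES4, a paralog of HES1 whose promoter window holds the same 12-base run, had the highest DMSO level of the members in Ku cells. There it was at 68.5 and 67.5 FPKM in DMSO, 46.5 and 49.4 at 50 nM, and 15.5 and 16.3 at 250 nM. The Cov libraries gave 51.2 and 50.4, then 48.9 and 40.4, then 21.1 and 27.9. The groups were separate in both lines, with a wider spread in the treated Cov libraries. HES4 changed at 250 nM by -2.03 on the log2 scale in Ku cells (standard error 0.0676, limma adjusted p = 6.93e-06) and -1.04 in Cov cells (0.147, limma adjusted p = 0.000289). The Cov call was lost when the first or the second DMSO library was left out (limma adjusted p = 0.00241 and 0.00227) or when the replicate number was a block (0.00212), and after median-of-ratios scaling HES4 was at -0.62 in Ku and 0.53 in Cov cells, called in neither. HES4 spans 1.21 kb of the minus strand of chromosome 1, from 934342 to 935552.

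HEY1, a related repressor, was the least abundant of the active targets. In Ku cells it was at 2.60 and 2.02 FPKM in DMSO, 2.19 and 1.54 at 50 nM, and 0.297 and 0.414 at 250 nM, and in Cov cells at 1.20 and 1.56, 0.888 and 0.919, and 0.508 and 0.459. In Ku cells the DMSO and 50 nM groups overlapped, and in Cov cells they did not. HEY1 changed at 250 nM by -1.28 on the log2 scale in Ku cells (standard error 0.148, limma adjusted p = 0.000263) and -0.68 in Cov cells (0.0904, limma adjusted p = 0.000201), while 15.4% and 35.0% of the DMSO FPKM was left. The Ku call was lost without the first DMSO library (limma adjusted p = 0.00173) or either 250 nM library (0.00248 and 0.00167), and the Cov call without either 250 nM library (0.001001 and 0.00141). After median-of-ratios scaling HEY1 was at -0.60 in Ku and 0.05 in Cov cells, called in neither.

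NRARP, an ankyrin-repeat protein that is induced by Notch and dampens it, was on the spike-in scale the one active member with a higher mean at 50 nM than in DMSO, and this was in Cov cells. After median-of-ratios scaling 8 of 9 members were above 0 at 50 nM in Cov cells and 7 of 9 in Ku cells, with NRARP at 1.21 (limma adjusted p = 0.00125, not called) and 0.32. In Cov cells NRARP was at 10.3 and 10.6 FPKM in DMSO, 12.4 and 13.8 at 50 nM, and 4.16 and 4.88 at 250 nM. Both 50 nM libraries lay above both DMSO libraries, at a mean of 124.9% of DMSO, while the median active gene changed by -0.85. The log2 fold change was 0.29 (standard error 0.109, limma adjusted p = 0.0345, 95% confidence interval 0.04 to 0.55), which was not called, and 99.3% of active genes had a lower one. In Ku cells NRARP was at 4.19 and 3.95 in DMSO, 4.36 and 3.17 at 50 nM, and 0.828 and 0.832 at 250 nM, and the first 2 groups overlapped. At 250 nM it was called lower in Ku cells (-1.47, standard error 0.1504, limma adjusted p = 0.000154) and in Cov cells (-1.06, 0.109, limma adjusted p = 4.61e-05). The Ku call was lost without the first DMSO library (limma adjusted p = 0.00132) or either 250 nM library (0.00170 and 0.00168), and after median-of-ratios scaling NRARP was at -0.55 in Ku and 0.35 in Cov cells at 250 nM, called in neither. From 50 nM to 250 nM it was called lower in both, at -1.37 in Ku and -1.35 in Cov cells, and 6.65% of active genes had a lower step in Cov cells. The Ku step lost its call without any library but the second at 50 nM, with limma adjusted p from 0.00107 to 0.00441. NRARP is a single exon of 2.64 kb at 140194083 to 140196723 of chromosome 9 (minus strand), 0.754 Mb from NOTCH1, and an antisense long non-coding RNA overlaps it.

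**Figure D3:**
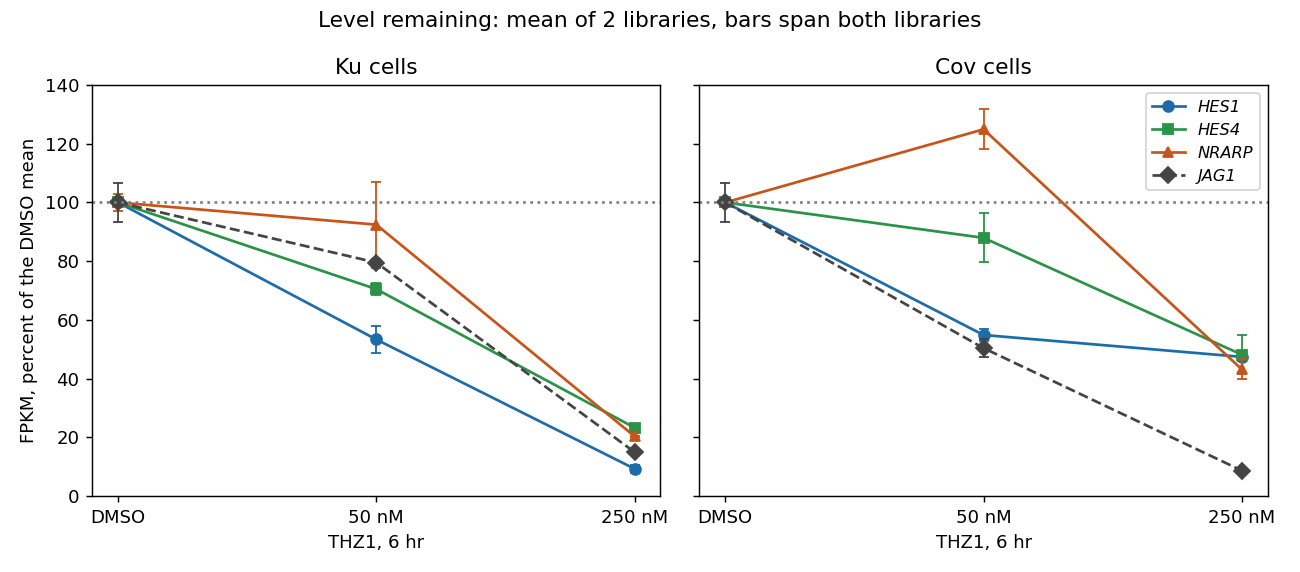
Mean FPKM of HES1, HES4, NRARP and JAG1 as a percent of the DMSO mean of the same line, with bars spanning both libraries, in Ku cells (left) and Cov cells (right). On this spike-in scale the HES1 line continues down to 9.34% at 250 nM in Ku cells and levels at 47.4% in Cov cells, where NRARP stands at 124.9% at 50 nM; after median-of-ratios scaling HES1, HES4 and NRARP turn above DMSO at 250 nM in Cov cells.

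The remaining pathway was read from a list of 52 further genes, of which 43 were active, sorted by role. At 250 nM, 37 of 43 were called lower in Ku cells (68.6% of all active genes) and 36 of 43 in Cov cells (84.0%), and none was higher. Their median log2 fold change was -1.29 in Ku and -1.33 in Cov cells, against -1.11 and -1.31 over all active genes. NEURL1, DTX4, HEY2 and HEYL were so low in the Cov DMSO libraries that even a fall to the floor could not be called there, at either dose. At 50 nM, 3 of 43 were lower in Ku cells, beside 11.3% of active genes (APH1A, HEY2 and HEYL, and none of the 3 without any 1 library of the line, where 0.0421% to 0.919% of active genes were). In Cov cells 32 of 43 were, beside 70.5%, and these became 20 and 14 without the first or the second DMSO library, where the shares of active genes fell to 48.4% and 30.3%. Without either 250 nM library, the 37 in Ku cells became 23 and 24, beside 42.7% and 44.3%. After median-of-ratios scaling, Ku cells had 13 of the 43 lower and 2 higher at 250 nM, beside 19.0% and 11.1% of active genes, and for Cov cells these numbers were 12 and 4, beside 18.9% and 8.57%.

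At 250 nM the partners that carry the Notch signal to DNA were the role with the lowest median change. For the nuclear complex and coactivators it was -2.32 in Ku cells, with 6 of 8 genes lower, and -2.55 in Cov cells, with 8 of 8 lower, beside 68.6% and 84.0% of active genes. After median-of-ratios scaling it was -0.99 and -1.01, with 5 of 8 lower in each, beside 19.0% and 18.9%. The role also holds genes named after their values were seen, here in Ku and Cov cells on the spike-in scale. They are SNW1 (-2.32 and -2.59), EP300 (-2.75 and -2.72), CREBBP (-2.54 and -2.56), KAT2A (-0.46 and -0.56) and KAT2B (-0.48 and -0.79). KAT2A and KAT2B changed less than the median active gene in both lines. RBPJ was at 18.2 and 14.7 FPKM in the Ku DMSO libraries, 11.3 and 9.72 at 50 nM, and 3.61 and 3.92 at 250 nM. In Cov cells RBPJ was at 32.7 and 37.2, then 17.0 and 18.7, then 8.12 and 7.69. The groups stood apart in the order of dose in both lines, with log2 fold changes at 250 nM of -1.87 in Ku cells (standard error 0.144, limma adjusted p = 4.86e-05) and -2.01 in Cov cells (0.102, limma adjusted p = 1.68e-06). DTX2, a Deltex ligase named after its values were seen, was left at 5.69% of its DMSO mean at 250 nM in Cov cells. MAML2 kept more of its DMSO mean but had the lowest change of log2(FPKM + 1) of the list at that dose in Cov cells. It went from 14.8 and 11.5 FPKM in DMSO through 7.86 and 7.51 to 0.643 and 0.843 at 250 nM in Ku cells, and from 23.9 and 26.5 through 8.54 and 10.0 to 2.02 and 1.90 in Cov cells. Its log2 fold changes at 250 nM were -3.01 (limma adjusted p = 1.52e-05) and -3.14 (limma adjusted p = 8.25e-07), leaving 5.65% and 7.80% of the DMSO mean. MAML1 was at 24.0 and 21.2 FPKM in Ku DMSO libraries and 24.9 and 23.7 at 50 nM, which overlapped, before 3.32 and 4.07 at 250 nM. In Cov cells MAML1 stood at 54.3 and 60.8, then 26.8 and 27.9, then 8.75 and 9.54, and its changes at 250 nM were -2.33 and -2.53. After median-of-ratios scaling MAML1 and MAML2 were still called lower in both lines, and RBPJ was at -0.59 and -0.49 and called in neither. MAML3 was not active.

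NUMBL, a homologue of the Notch antagonist NUMB, had the lowest change of log2(FPKM + 1) of the list in Ku cells, from 23.9 and 20.1 FPKM in DMSO through 9.57 and 8.54 to 1.55 and 1.75 at 250 nM (-3.11, limma adjusted p = 1.01e-05), which left 7.50% of its DMSO mean. The added pseudocount sets this order, since lower shares were left of DTX4 (7.28%), DTX2 (6.40%), MAML2 (5.65%) and HEY2 (2.38%). HEY2, a HEY1 relative also named after its values were seen, was at 7.39 and 6.34 FPKM in the Ku DMSO libraries, 2.30 and 2.53 at 50 nM, and 0.159 and 0.168 at 250 nM, and the last values are near the floor. For the roles that follow, the shares of all active genes called lower were again 68.6% in Ku and 84.0% in Cov cells, and the all-gene medians -1.11 and -1.31. NUMBL was one of the ubiquitin ligases and endocytic regulators, of which 11 of 11 were called lower in Ku cells and 8 of 11 in Cov cells. Of these, NEURL1 and DTX4 had Cov DMSO means of 0.27 and 0.53 FPKM and were active through Ku cells alone. At such levels even a fall to the floor stays short of -0.5 on log2(FPKM + 1), so no call was possible. DTX4 was left at 27.84% of its DMSO mean in Cov cells at 250 nM. The highest change in Ku cells was that of HDAC1, a histone deacetylase of corepressor complexes, at 265.6 and 238.1 FPKM in DMSO and 229.8 and 211.2 at 250 nM (-0.19, limma adjusted p = 0.0588, not called). In Cov cells it was that of NEURL1, a ligase for Notch ligands listed as NEURL, at 0.254 and 0.285 FPKM in DMSO and 0.183 and 0.181 at 250 nM, between 1.72 and 2.59 times the floor (-0.10, limma adjusted p = 0.141). The receptor proteases were lower for 8 of 9 genes in Ku and 9 of 9 in Cov cells, with medians of -1.14 and -1.24. Between 50 nM and 250 nM, limma called 3 of the 9 lower in Ku cells, where 36.0% of active genes were. For the Cov libraries it called 0, beside 24.4% of active genes, with 7 of the 9 at an unadjusted p under 0.05 and a median of -0.28. The receptor glycosyltransferases were lower for 4 of 4 in both lines (medians -1.18 and -1.17), and the corepressors of RBPJ for 5 of 7 and 7 of 7 (-1.63 and -1.53). The other HES and HEY genes, HES6, HEY2 and HEYL, were lower for 3 of 3 in Ku cells (median -1.42) and 0 of 3 in Cov cells (-0.37), where HEY2 and HEYL were under 0.5 FPKM in every library. From that level neither could be called lower, even after a fall to the floor. These counts are on the spike-in scale, and after median-of-ratios scaling the role medians in Ku and Cov cells were 0.24 and 0.26 for the proteases, 0.06 and 0.10 for the glycosyltransferases, -0.16 and -0.05 for the ligases and endocytic regulators, -0.54 and -0.09 for the corepressors and -0.76 and 0.09 for the other HES and HEY genes. NUMBL was then still lower (-1.94 and -1.28), and HDAC1 was called higher (1.26 and 0.86). NCSTN, a γ-secretase subunit, was also called higher in both lines on that scale (0.98 and 0.56), as were the acetyltransferase gene KAT2A (0.96) and PSENEN (0.51), another γ-secretase subunit, in Cov cells.

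**Figure D4:**
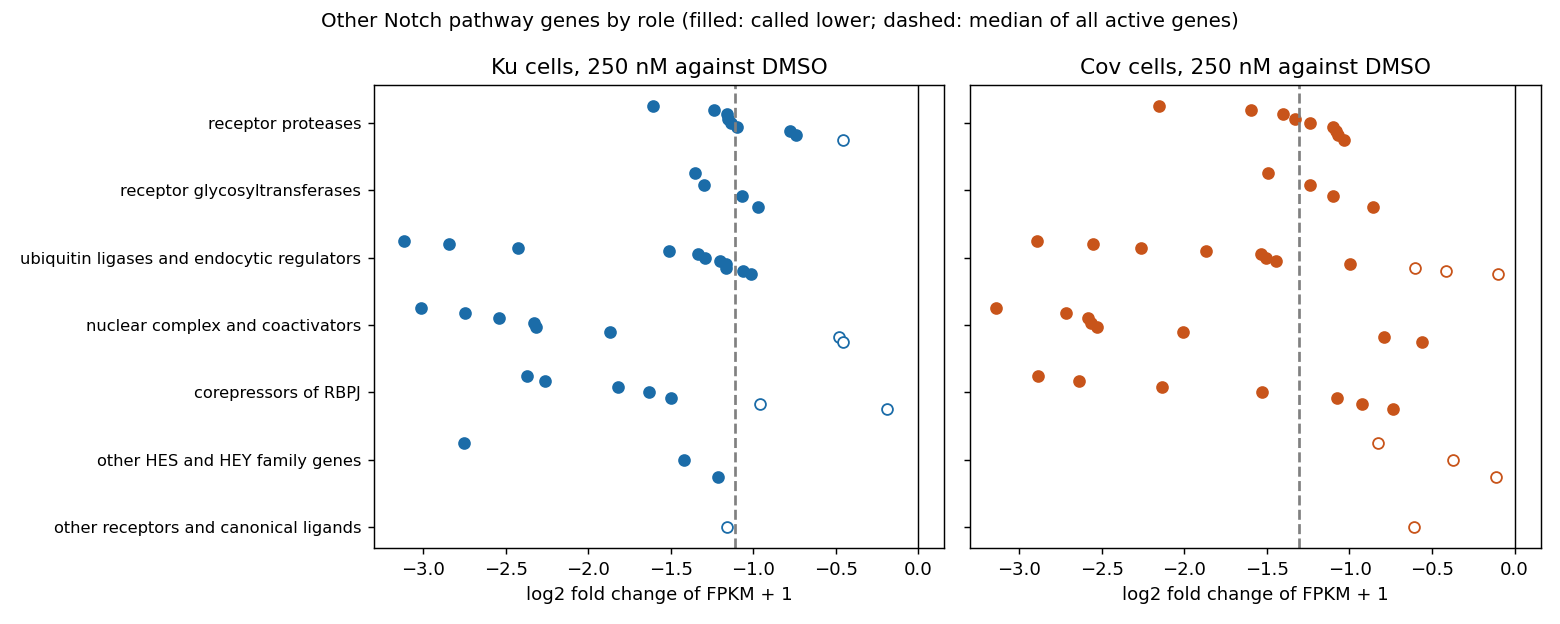
Log2 fold change of FPKM + 1 at 250 nM against DMSO for the 43 other active pathway genes by role, in Ku cells (left) and Cov cells (right); filled points were called lower by limma and the dashed line is the median of all active genes. On this spike-in scale all 43 points lie below 0 in both lines and the nuclear complex and coactivators reach -3.01 and -3.14; after median-of-ratios scaling 17 and 20 of the 43 were above 0.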

How the data were processed

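RNA-seq values were analysed from 12 libraries, grouped by line and dose from their labels. RNA amounts were matched on cell number, ERCC spike-in RNAs were added, and stranded poly-A libraries were made. HiSat placed the reads on hg19, and the authors deposited FPKM, from cuffquant and cuffnorm and rescaled to the spike-ins, separately for each line. Tool versions are not given in the sources used here. Every column was used. Because FPKM are not counts, count-based tests were not used and depth is unknown.

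Genes with FPKM above 1 in at least 1 library were active, and 92 ERCC rows were left out. Log2(FPKM + 1) was fitted per line, 3 groups of 2 libraries, with limma 3.58.1 in R 4.3.3 (eBayes with trend). Tests were two-sided, adjusted by Benjamini-Hochberg over 14251 genes, and called at adjusted p under 0.001 and log2 fold change beyond 0.5. A fold change on this scale understates the change of low genes. Positions come from GENCODE lifted to GRCh37, and promoters from RefSeq (8 of 10 members matched, not DLL1 and HEY1). Motifs were searched with Python 3.11.15 and pandas 2.3.3, figures drawn with matplotlib 3.10.9, and tables read with data.table (version 1.17.8).

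Members and lists were chosen with earlier results of these data known. All members were named, and from the pathway list RBPJ, MAML1 to MAML3, any gene called higher (also under median-of-ratios scaling), and the lowest and highest change at 250 nM per line. The role groups and the genes listed at 50 nM were named as counts of 5 or fewer, after their values were seen. Alternatives were a pseudocount of 0.1, no minimum FPKM, median-of-ratios scaling of the libraries of a line over active genes, eBayes without trend, a replicate block, an adjusted p under 0.05, and each library left out in turn. Where a library is left out, the lone library of its group is assumed to vary like the other groups.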

Additional observations from a re-analysis of the deposited data

Results flagged for a closer look

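In 3 cases among the members and other pathway genes, every treated library moved one way in Ku cells and the opposite way in Cov cells under the same contrast. The share of all active genes that did so is not given here, so 3 cases cannot be called many or few. The differences were not tested, because the tables of the lines were normalized separately. NOTCH3 changed by -0.65 on the log2 scale from 50 nM to 250 nM in Ku cells, where both 250 nM libraries lay below both 50 nM libraries, and by 0.24 in Cov cells, where both lay above. Neither change was called, and the Ku value was 0.16 under median-of-ratios scaling. FBXW7, a ligase that marks the Notch intracellular domain for degradation, changed by 0.29 at 50 nM against DMSO in Ku cells and by -0.55 in Cov cells, and neither was called. HDAC1 changed by 0.12 at 50 nM in Ku cells and by -0.49 in Cov cells, and neither was called. The opposite directions of FBXW7 and HDAC1 hold on the spike-in scale, and under median-of-ratios scaling FBXW7 was at 0.77 in Ku and 0.38 in Cov cells and HDAC1 at 0.68 and 0.52.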

How the results depend on the processing

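Median-of-ratios scaling turned the sign of 23 of 54 member results and 105 of 258 results of the other pathway genes, or 42.6% and 40.7%, beside 46.4% over all active genes. Because that scaling centres the median active gene near no change, many signs turn by construction. Under median-of-ratios scaling, members lower numbered 3 in Ku cells and 1 in Cov cells at 250 nM, 0 in Cov cells at 50 nM, and 4 and 1 from 50 nM to 250 nM. Other pathway genes lower numbered 13 and 12 at 250 nM, 0 and 0 at 50 nM, and 11 and 7 between the doses, while the shares of active genes were 19.0% and 18.9%, 2.72% and 0.772%, and 11.1% and 7.92%. How much of each loss came from centring the median gene was not tested. Log2 fold changes that turned positive in Ku cells were, at 50 nM, NOTCH1 0.29, NOTCH2 0.52, JAG1 0.23, JAG2 0.30, HES4 0.053, HEY1 0.15 and NRARP 0.32, and NOTCH3 0.064 at 250 nM and 0.16 between the doses. In Cov cells they were, at 50 nM, NOTCH2 0.23, NOTCH3 0.076, JAG1 0.041, JAG2 0.14, HES1 0.16, HES4 0.82 and HEY1 0.20, at 250 nM NOTCH3 0.68, JAG2 0.13, HES1 0.52, HES4 0.53, HEY1 0.048 and NRARP 0.35, and HES1 0.36 between the doses. With 1 library left out, NOTCH2 at 50 nM in Ku cells ranged from -0.15 to 0.10, positive without the first DMSO or the second 50 nM library, and NRARP from -0.28 to 0.080, positive without the second 50 nM library.

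An adjusted p under 0.05 gave 2 members and 20 other pathway genes lower in Ku cells at 50 nM (40.2% of active genes), and 5 and 23 in Cov cells between the doses (41.5%). Without a minimum FPKM, other pathway genes lower in Ku cells numbered 0 at 50 nM and 9 between the doses (0.0211% and 13.3% of active genes), and eBayes without trend gave 1 at 50 nM (8.13%). With 1 library left out, members lower ranged from 7 to 9 and 6 to 8 at 250 nM in Ku and Cov cells, from 0 to 4 at 50 nM in Cov cells, and from 2 to 6 and 2 to 3 between the doses. Other pathway genes ranged from 23 to 34 and 31 to 38 at 250 nM, stayed at 0 in Ku cells and ranged from 14 to 33 in Cov cells at 50 nM, and from 4 to 21 and 9 to 15 between the doses. The shares of active genes then ranged from 42.7% to 63.5% and 73.3% to 86.6% at 250 nM, from 0.0421% to 0.919% and 30.3% to 69.7% at 50 nM, and from 5.55% to 32.3% and 10.7% to 27.9% between the doses, in Ku and Cov cells. The cause was not tested. Replicate numbers did not pair the libraries (correlation of deviations -0.07 to 0.03). With them as a block, HES4 at 250 nM in Cov cells was no longer called (limma adjusted p = 0.00212), other pathway genes lower between the doses in Cov cells numbered 7 (7.93% of active genes), and no other count of member or pathway calls moved by over 1.5 times. The share of all active genes called lower at 50 nM in Ku cells went from 11.3% to 6.94%. Over all alternatives, 107 of the counts stayed within 1.5 times and 37 did not. Single-member results kept direction and side of the threshold 559 times, lost a call 53 times, gained one 10 times and turned sign 26 times. Depth is not known, so values near the floor, such as those of DLL1, allow no statement on a change.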
